A study of Mus musculus with 31 samples.

Results

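Inguinal lymph nodes (ILN) of GIT2 knockout (GIT2KO) mice were compared with those of wildtype (WT) mice. The members are the samples labelled as inguinal nodes, 3 GIT2KO homozygotes and 3 WT, 6 of the 27 samples of the series, measured on 7 of its 31 arrays because GIT2KO replicate 2 was run on a pair of arrays that were averaged. All were male, 12 months old, of the C57BL/6 strain by label, fasted for 12 h and kept on a 12 h light and dark cycle. The knockout is a gene trap carried in every cell of the animal, so it does not separate lymphocytes from the stroma of the node. RNA from whole nodes was hybridized to Illumina MouseRef-8 bead arrays, and the same animals also gave mesenteric lymph nodes (MLN), spleen and thymus. The hour of day at which tissue was taken is not given in the sources used here. Each p-value weighs a difference against the spread between samples within groups, taken over all 27 samples of the series unless another fit is named.

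The inguinal node drains skin and the fat pad in which it lies, and filters lymph past follicles of B cells and a surrounding zone of T cells. GIT2 is a scaffold protein that binds PIX exchange factors and PAK kinases and acts on ARF GTPases, and through these on cell migration and receptor trafficking. Peripheral tissues, lymphoid tissue included, run a circadian clock in which CLOCK and ARNTL (BMAL1) switch on the Per, Cry and Nr1d genes, whose products then repress CLOCK and ARNTL activity or the Arntl gene itself. Glucocorticoid hormone, which itself cycles with the day, induces a partly shared set of genes and acts on T cells.

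The cell type markers of a node were present. The mean over 17 tested B cell genes was 10.01-10.52 across the 6 samples and the mean over 17 T cell genes at least 9.47 (log2 normalized signal). Of 10 tested epithelial genes, 7 were not well above background in any of the 6 samples, the keratins Krt5, Krt14, Krt8, Krt18 and Krt15 among them. Krt10 and Trf of that list were detected in at least 1 sample. The arrays were of like quality, with a mean signal of 348-458 in GIT2KO and 366-453 in WT, and 47.3-50.7% of probes detected. The repeat array differed from the first with an SD of 0.21 over probes (log2), below the 0.295-0.381 between GIT2KO animals and the 0.254-0.267 between WT animals. GIT2KO replicate 3 was the farthest from the other knockout nodes, at 0.370 and 0.381.

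Git2 itself was lower in every knockout node and on each of its 3 probes. On the brightest probe the signal was 7.17, 6.87 and 7.16 in GIT2KO against 8.21, 8.03 and 8.2 in WT, a log2 difference of -1.08 (SE 0.25, adjusted p = 0.0181). The other probes gave differences of -2.0 (adjusted p = 3.52e-08) and -2.08 (adjusted p = 5.28e-06). No GIT2KO value overlapped a WT value on any of the 3 probes, and all 3 probes stayed above background in all 3 knockout nodes. The call on the brightest probe, though not its direction, was lost without GIT2KO replicate 2, WT replicate 1 or WT replicate 3 (adjusted p of up to 0.0912).

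Of 15053 tested transcripts (1 transcript is 1 array probe), 127 were higher in GIT2KO ILN (0.844%) and 257 were lower (1.71%) at an adjusted p under 0.05 (limma, Benjamini-Hochberg), 2.55% in all. Differences of over 2-fold were more often falls, with 64 of the higher and 137 of the lower transcripts past that size. The median difference over all tested transcripts was 0.01 on the log2 scale. Groups that did not overlap at all were far more frequent, at 29.6% of tested transcripts, than calls. These counts come from a fit in which all 27 samples share the estimate of spread, and the median SD within groups was 0.163 in the inguinal nodes against 0.249 over all groups. A fit of the 6 inguinal samples alone called 612 higher (4.07%) and 690 lower (4.58%), nearly as many higher as lower. Leaving out any 1 of the 6 samples left 65-82 higher and 132-168 lower calls.

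**Figure D1:**
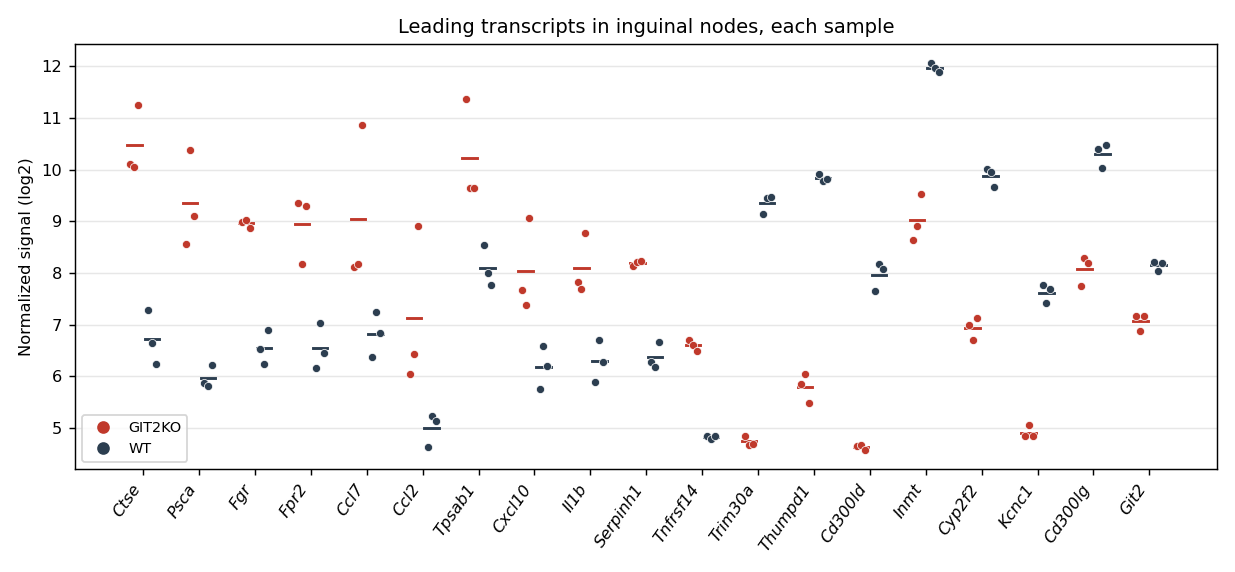
Normalized signal (log2, y axis) of 19 genes named in the text (x axis) in each inguinal node, GIT2KO in red and WT in dark blue, with a line at the mean of each group of 3. The GIT2KO and WT points do not overlap for any of the genes drawn; Ctse lies at 10.06-11.25 in GIT2KO and 6.24-7.29 in WT, and Trim30a at 4.67-4.85 and 9.14-9.47.

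The largest rise in the knockout node was that of a protease of antigen-presenting cells, and a receptor and a kinase of myeloid cells were among the other rises. Ctse, which encodes the endosomal aspartic protease cathepsin E, stood at 10.11, 10.06 and 11.25 in GIT2KO and at 7.29, 6.64 and 6.24 in WT. The log2 difference was 3.76 (SE 0.51, adjusted p = 4.36e-05), and every knockout node lay above every WT node. Psca, a lipid-anchored surface protein first described in prostate, stood at 8.56, 10.39 and 9.10 against 5.86, 5.81 and 6.21 (log2 difference 3.39, SE 0.59, adjusted p = 0.00103). Fgr, a Src family kinase of myeloid cells, was even across the animals, at 8.98, 9.03 and 8.88 against 6.52, 6.24 and 6.90 (log2 difference 2.41, SE 0.36, adjusted p = 0.000198). Fpr2, a receptor for formyl peptides on phagocytes, rose by 2.39 (SE 0.60, adjusted p = 0.0283). The macrophage and monocyte list, taken as a whole, had none of 18 tested members called in either direction and a median of -0.24, and its mean was 9.93-10.34 in GIT2KO and 9.98-10.41 in WT.

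Chemokines and a cytokine of inflammation rose too, and GIT2KO replicate 3 carried the highest value of each. Ccl7, a monocyte attractant, was at 8.11, 8.17 and 10.86 in GIT2KO and at 6.37, 7.25 and 6.83 in WT (log2 difference 2.23, SE 0.52, adjusted p = 0.0178). Ccl2, which acts on the same receptor, was at 6.04, 6.42 and 8.90 and was not well above background in any WT node. It was thus at least 3.24-fold higher, with undetected values raised to the detection limit of their array (adjusted p = 0.00423). These values show a rise in all 3 knockout nodes with replicate 3 well above the others. Il1b, the gene of interleukin 1 beta, was at 7.82, 7.69 and 8.77 against 5.88, 6.71 and 6.28 (log2 difference 1.80, SE 0.42, adjusted p = 0.0175). The calls of Ccl7, Cxcl10 and Il1b were each lost without GIT2KO replicate 3, without WT replicate 1 and without WT replicate 3, and over the samples left out in turn their adjusted p reached 0.154, 0.153 and 0.139, while Ccl2 passed throughout. Fpr2 was lost without GIT2KO replicate 1 or 3 or WT replicate 1 or 3, reaching 0.146. In the fit of the inguinal samples alone Ccl2 did not pass, and Ccl7 passed at an adjusted p of 0.0491.

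Genes that answer interferon leaned upwards around one deep fall. Of 30 tested members of the interferon list, 3 rose (10%, against 0.909% of all genes taken by 1 transcript each) and 1 fell (3.33%, against 1.89%). The list median was 0.31 against -0.01 over all genes, and 24 of the 30 differences were positive. Cxcl10, a chemokine that attracts activated T cells, stood at 7.67, 7.38 and 9.06 against 5.76, 6.59 and 6.20 (log2 difference 1.86, SE 0.43, adjusted p = 0.0154). Mx2, an antiviral GTPase, rose by 1.53 (SE 0.39, adjusted p = 0.0329) and Isg15, a ubiquitin-like modifier, by 1.39 (SE 0.36, adjusted p = 0.0387). Members that did not pass include Oasl1 with a difference of 1.38 (adjusted p = 0.0501), Cxcl9 with 1.15 and Usp18 with 0.80. The sole fall was Trim30a, described below. Leaving out 1 sample left 0-2 of the rises, with none without GIT2KO replicate 3 or without WT replicate 1, and the inguinal fit alone called 7 higher and 2 lower, where 3.62% of all genes were higher and 5.04% lower. The mean over the list was 8.47-8.79 in GIT2KO and 8.08-8.53 in WT, ranges that overlap.

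The deepest falls were of transcripts whose probes lost most or all of their signal in the knockout. Probe sequences were not examined here, so whether a sequence difference under a probe bears on these folds was not tested, and each fold is one of probe signal. Trim30a, an interferon-induced regulator of Toll-like receptor signalling, was at 4.85, 4.67 and 4.69 in GIT2KO, not well above background, and at 9.14, 9.44 and 9.47 in WT. That is at least 15.6-fold lower (adjusted p = 2.12e-10). Its family member Trim30d fell by 2.71 (SE 0.27, adjusted p = 4.76e-07). Thumpd1, an adaptor for the acetylation of transfer RNA, was at 5.84, 6.05 and 5.47 against 9.92, 9.79 and 9.82, a log2 difference of -4.05 (SE 0.18, adjusted p = 1.36e-13). The WT nodes differed from each other by little and the knockout nodes were far below them. Twistnb, a subunit of RNA polymerase I, had a log2 difference of -2.84 (SE 0.21) on its brighter probe and of -3.63 (SE 0.18) on the other, and both passed. Cd300ld, a receptor of the CD300 family, was at least 5.97-fold lower, Kcnc1, a potassium channel, at least 4.7-fold lower and 4933427D14Rik at least 6.35-fold lower. Cd300lg, the CD300 family member of endothelial cells, stayed detected and fell from 10.40, 10.04 and 10.47 in WT to 7.75, 8.29 and 8.18 (log2 difference -2.22, SE 0.34, adjusted p = 0.000253).

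For some of these genes the probes disagreed. The large fall of Mak16, a ribosome assembly factor, was measured on 1 probe (log2 difference -4.19, SE 0.52), where no knockout node was above background, while its brightest probe differed by 0.11 (adjusted p = 0.878). Cxcr5, the chemokine receptor that places B cells in follicles, was at 4.59, 4.65 and 4.57 in GIT2KO against 7.80, 7.58 and 8.17 in WT on 1 probe, at least 5.52-fold lower. The brightest Cxcr5 probe read 10.76, 10.45 and 10.82 against 10.22, 9.94 and 10.29 (log2 difference 0.52, adjusted p = 0.528), and a further probe differed by 0.38. Arl3, a GTPase of cilia, showed a fall of 2.43 on 1 probe and a difference of -0.34 (adjusted p = 0.26) on the brighter one. Fxyd2, a regulator of the sodium pump, rose by 2.49 on 1 probe, differed by 1.15 on its brightest (adjusted p = 0.0591) and fell by 1.31 on a further probe, where the groups overlap. Of 98 called genes with over 1 tested probe, 11 had every probe called in 1 direction, 24 had probes of opposite sign, and 2, Fxyd2 and Saraf, had calls both ways. A fall on 1 such probe was therefore not a fall of the gene on all its probes, and what sets the probes apart was not tested.

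Of the 31 lists, that of the clock had the largest share of its members called. Of 18 tested members, 6 fell (33.3%, against 1.89% of all genes) and none rose (0.909% of all genes), with a median of -0.33 against -0.01. Without any 1 sample 5-6 of them were still called lower. The inguinal fit alone called 7 lower and 2 higher, where 5.04% of all genes were lower and 3.62% higher. The falls were of the repressors and of the output factors. Nr1d1 (REV-ERB alpha), which represses Arntl, was at 6.66, 6.87 and 6.57 in GIT2KO and 8.72, 8.44 and 8.18 in WT (log2 difference -1.75, SE 0.26, adjusted p = 0.000151). Dbp, an output factor that binds D-box sequences, was at 9.39, 9.82 and 9.64 against 11.37, 11.19 and 11.39 (log2 difference -1.70, SE 0.20, adjusted p = 7.52e-06). Knockout and WT values of both genes were separated by over 1 log2 unit. Per1, a repressor of CLOCK and ARNTL, was at 8.86, 8.68 and 8.80 against 10.53, 10.06 and 10.13 (log2 difference -1.46, SE 0.24, adjusted p = 0.000453), and its second probe differed by -1.47. Tef, which binds the same D-box sequences as DBP, fell by 1.09 (SE 0.20, adjusted p = 0.00178), Per3 by 1.17 (SE 0.24, adjusted p = 0.00573) and Per2 by 0.88 (SE 0.15, adjusted p = 0.000741). Per3 was lost without GIT2KO replicate 2 or without WT replicate 2, at an adjusted p of up to 0.0605.

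The activators of the clock did not move that way. Arntl had a difference of 0.73 (adjusted p = 0.1) with all 3 knockout values above all 3 WT values, and Clock a difference of 0.11 (adjusted p = 0.86). Nr1d2 differed by -0.73 (adjusted p = 0.092), Cry2 by -0.39 and Bhlhe40 by 0.40. The mean of the 18 genes was 8.09-8.14 in GIT2KO and 8.53-8.63 in WT, without overlap. No member of the list was undetected in all 6 nodes.

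**Figure D2:**
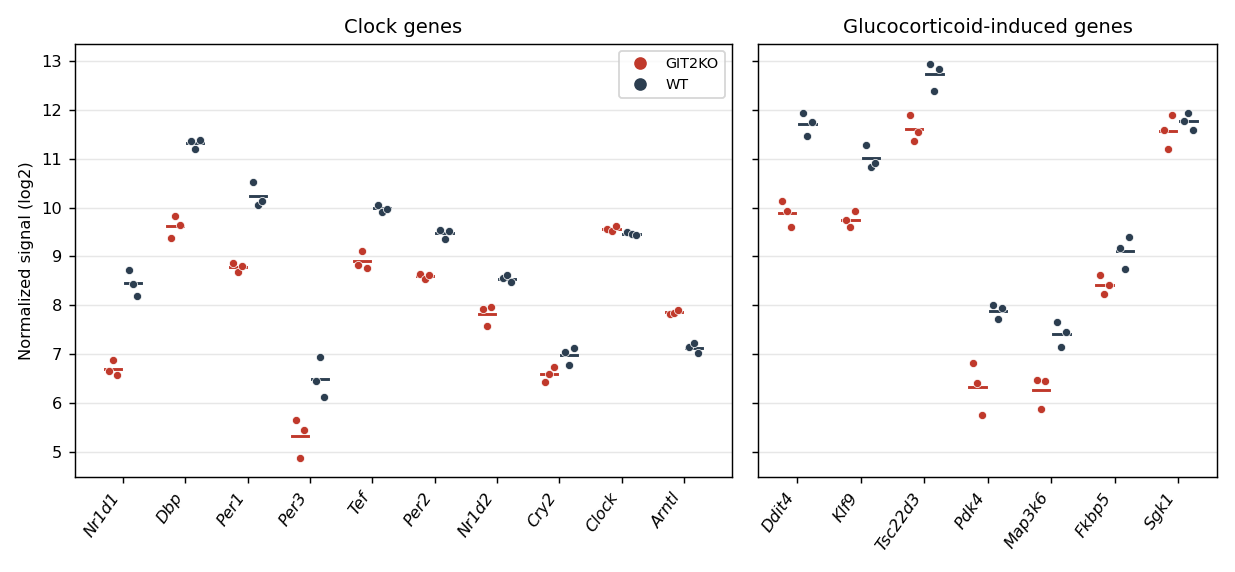
Normalized signal (log2, y axis) in each inguinal node of 10 clock genes (left) and 7 glucocorticoid-induced genes (right), GIT2KO in red and WT in dark blue, with a line at each mean. Nr1d1, Dbp, Per1, Per3, Tef and Per2 lie lower in every GIT2KO node, and Arntl lies higher without passing the test (adjusted p = 0.1).

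The sequence before the start site is shown for 3 clock genes that fell and that hold one of the motifs searched. Of the other clock genes that fell, Nr1d1 and Dbp held neither motif, and Per2 had no promoter among those searched. The windows run from 250 bases before to 50 after the start, on the strand of the gene, from RefSeq promoters on GRCm38.p6. Capitals mark the E-box CACGTG, bound by CLOCK with ARNTL, or the D-box TTATGTAA, bound by DBP and TEF, searched on both strands with no overlap between the motifs.
Per1, chr11:69098699-69098998, plus strand: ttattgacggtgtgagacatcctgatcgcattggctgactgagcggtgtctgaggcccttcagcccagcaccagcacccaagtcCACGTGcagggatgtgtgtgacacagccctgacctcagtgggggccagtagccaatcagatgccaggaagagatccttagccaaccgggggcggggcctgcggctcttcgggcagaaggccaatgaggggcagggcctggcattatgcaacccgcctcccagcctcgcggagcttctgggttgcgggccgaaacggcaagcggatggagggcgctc
Tef, chr15:81811164-81811463, plus strand: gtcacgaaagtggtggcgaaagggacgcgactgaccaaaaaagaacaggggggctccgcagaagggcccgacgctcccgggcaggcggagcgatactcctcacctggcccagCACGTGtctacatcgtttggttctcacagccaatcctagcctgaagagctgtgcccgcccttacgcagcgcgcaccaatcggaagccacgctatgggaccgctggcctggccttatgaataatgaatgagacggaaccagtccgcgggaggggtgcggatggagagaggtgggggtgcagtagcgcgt
Per3, chr4:151044616-151044915, minus strand: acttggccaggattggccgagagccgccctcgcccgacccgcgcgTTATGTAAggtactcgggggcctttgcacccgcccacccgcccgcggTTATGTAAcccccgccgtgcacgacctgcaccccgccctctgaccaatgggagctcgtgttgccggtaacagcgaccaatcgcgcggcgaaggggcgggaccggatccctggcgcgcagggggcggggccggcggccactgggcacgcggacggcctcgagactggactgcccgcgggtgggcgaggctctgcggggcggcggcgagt

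The E-box begins 166 bases before the Per1 start and 138 bases before this start of Tef, and the D-boxes begin 205 and 158 bases before the Per3 start. Of the 15 tested clock genes with a promoter in the table, 2 held the E-box, or 13.3%, against 11.3% of 8390 tested genes and 8.09% of all 27025 genes. The D-box was in 2 of the 15, Per3 and Timeless, or 13.3%, against 0.834% of tested genes and 1.11% of all. Timeless differed by 0.11 and did not pass. Per1 and Tef each have a second start in the table, and that of Tef holds an E-box as well. No match in a window of 300 bases says only that these letters are not in it.

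Genes induced by glucocorticoid were lower as well, and this list shares Per1 with the clock list. Of 19 tested members 4 fell (21.1%, against 1.89% of all genes), none rose, the median was -0.68 against -0.01, and 18 of the 19 differences were negative. Ddit4 (REDD1), an inhibitor of mTOR signalling, was at 10.14, 9.93 and 9.61 in GIT2KO and 11.94, 11.46 and 11.76 in WT (log2 difference -1.83, SE 0.34, adjusted p = 0.00213). Klf9, a hormone-responsive zinc finger factor, was at 9.74, 9.60 and 9.93 against 11.28, 10.84 and 10.92 (log2 difference -1.26, SE 0.26, adjusted p = 0.00726). Tsc22d3 (GILZ), a mediator of glucocorticoid action in lymphocytes, was at 11.90, 11.38 and 11.55 against 12.95, 12.39 and 12.85 (log2 difference -1.12, SE 0.25, adjusted p = 0.0123). All 3 had no overlap between knockout and WT nodes. Pdk4 differed by -1.56 (adjusted p = 0.13), Map3k6 by -1.16 (adjusted p = 0.1), Fkbp5 by -0.68 (adjusted p = 0.28) and Sgk1 by -0.20 (adjusted p = 0.71). Leaving out 1 sample left 2-4 falls, with 2 without WT replicate 1, and a list median of -0.86 to -0.63. The inguinal fit alone called 11 lower and none higher, where 5.04% of all genes were lower and 3.62% higher. Klf9 was lost without WT replicate 1 (adjusted p = 0.0584), and Tsc22d3 without GIT2KO replicate 2 or 3 or WT replicate 1 or 3 (up to 0.0833).

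Genes of T cells were lower and genes of B cells leaned higher in the knockout node. In whole nodes, fewer cells of a type and less RNA per cell cannot be told apart. Of 17 tested T cell genes 4 fell (23.5%, against 1.89% of all genes), none rose, and the median was -0.35 with 16 of 17 differences negative. Cd3e, a chain of the T cell receptor complex, was at 10.57, 10.63 and 10.49 in GIT2KO and 11.16, 11.21 and 11.30 in WT (log2 difference -0.66, SE 0.13, adjusted p = 0.00552). Its neighbours in the genome Cd3d and Cd3g fell by 0.70 (SE 0.16, adjusted p = 0.0113) and 0.72 (SE 0.20, adjusted p = 0.0492), and Zap70, the kinase that binds the complex, by 0.55 (SE 0.13, adjusted p = 0.0154). Cd4 differed by -0.31 (adjusted p = 0.69) and Cd8b1 by -0.44 (adjusted p = 0.13). Il7r differed by -0.98 on its brightest probe (adjusted p = 0.064), while another of its probes differed by -1.17 and was called lower. That probe was also called lower in MLN (-1.41), spleen (-1.11) and thymus (-1.28). Summed over the list, linear signal was 21930-22828 in GIT2KO and 30982-32524 in WT. Leaving out 1 sample left 1-3 of the 4 calls, with 1 left without GIT2KO replicate 3, WT replicate 1 or WT replicate 3. The inguinal fit alone called 9 lower, where 5.04% of all genes were lower. Cd3g was lost on removal of any 1 sample (adjusted p of up to 0.164), and Zap70 on removal of any but GIT2KO replicate 1 (up to 0.0763). Cd3d was lost without GIT2KO replicate 3, WT replicate 1 or WT replicate 3 (up to 0.083), and Cd3e passed throughout.

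In the B cell list 1 of 17 tested genes rose (5.88%, against 0.909% of all genes), none fell, and 16 of 17 differences were positive with a median of 0.31. The gene that passed was Cr2, the complement receptor of mature B cells and of follicular dendritic cells, at 8.15, 7.90 and 7.79 against 7.21, 6.56 and 7.11 (log2 difference 0.98, SE 0.24, adjusted p = 0.0213). Ms4a1 (CD20) differed by 0.52 (adjusted p = 0.34), Cd22 by 0.48 and Cd79a by 0.14 (adjusted p = 0.9). Cxcl13, the stromal chemokine of B cell follicles, differed by 1.00 (adjusted p = 0.173), at 12.46, 12.68 and 12.37 against 11.80, 11.40 and 11.31. Summed B cell signal was 40106-42155 in GIT2KO and 31053-36154 in WT. The call of Cr2 was lost without GIT2KO replicate 1 or 2 or WT replicate 2 (adjusted p of up to 0.152). The inguinal fit alone called 6 B cell genes higher, where 3.62% of all genes were higher. Plasma cell and germinal centre lists had no call, and the plasma cell mean was 8.69 in GIT2KO replicate 3 against 7.71-7.92 in the other 5 nodes.

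In the natural killer and cytotoxic list 3 of 15 genes fell (20%, against 1.89% of all genes), none rose, and the median was -0.34 with 12 of 15 differences negative. Klra7, an inhibitory Ly49 receptor, was at 6.80, 5.54 and 6.50 against 8.41, 8.2 and 8.36 (log2 difference -2.05, SE 0.36, adjusted p = 0.00101). Klre1 fell by 1.17 (SE 0.30, adjusted p = 0.035) and Klrd1 (CD94) by 1.05 (SE 0.26, adjusted p = 0.0315). Effector genes that did not pass include Prf1, at -0.29, Gzmk, at 0.22, and Ifng, at 0.47 and detected in 1 of the 6 nodes. Gzmk and Ifng are among the 3 members with a positive difference. Klra7 was the only 1 of the 3 called whichever sample was left out, while Klre1 and Klrd1 were lost on removal of any sample (up to 0.181 and 0.161). Klra7 belongs to a family of near-identical genes, so its probe may read more than 1 of them. Tnfrsf4 (OX40), a costimulatory receptor of activated and regulatory T cells, fell by 1.05 (SE 0.26, adjusted p = 0.0257), as the 1 call among 14 genes of that list (7.14%, against 1.89% of all genes). Its call was lost on removal of any sample but GIT2KO replicate 2 (adjusted p of up to 0.159). Btla, an inhibitory receptor, differed by -0.49 (adjusted p = 0.193), and Tnfrsf14 (HVEM), its ligand, rose, being undetected in WT and at least 2.25-fold higher in GIT2KO (adjusted p = 3.54e-08).

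**Figure D3:**
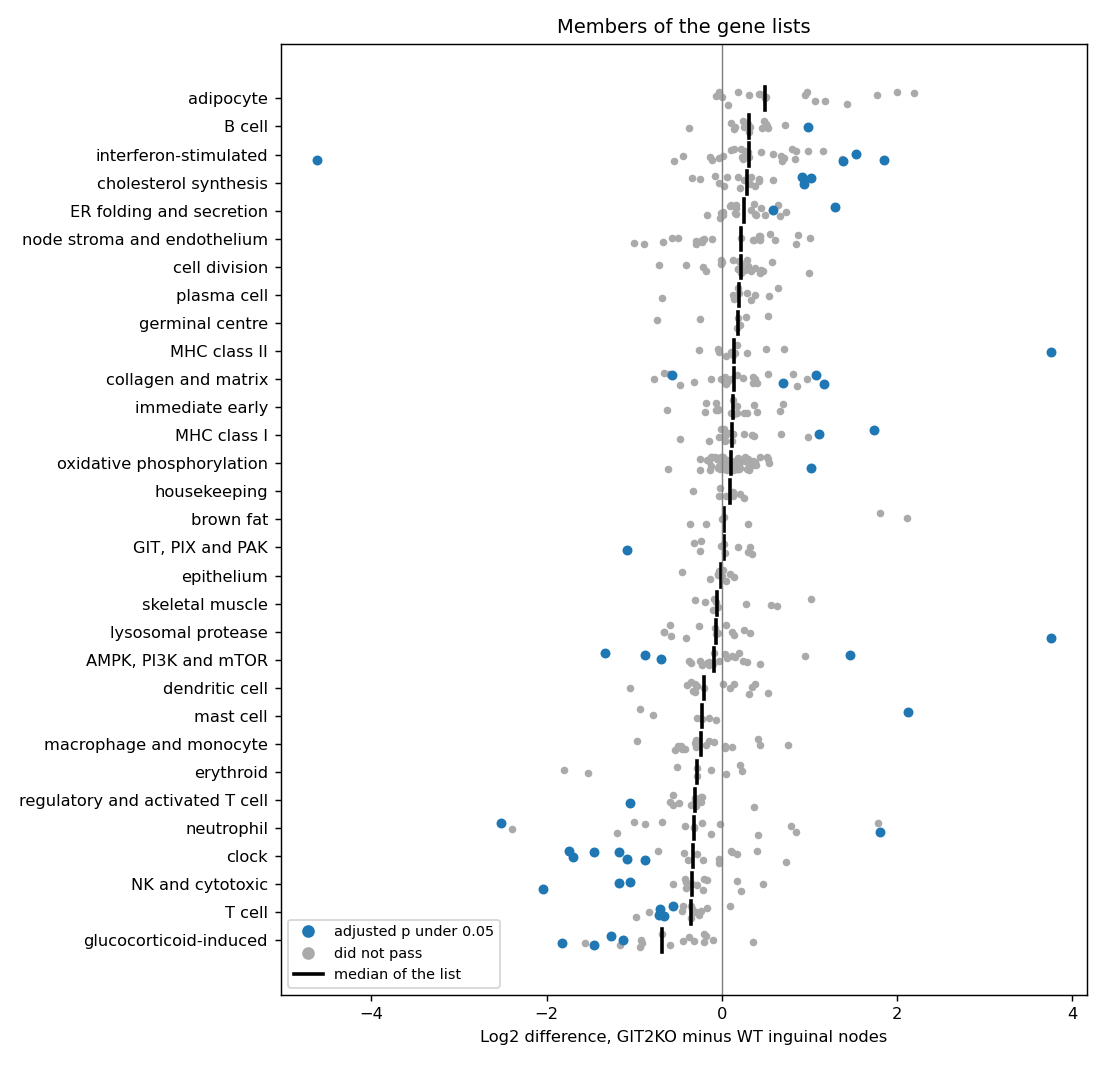
Log2 difference between GIT2KO and WT inguinal nodes (x axis) of every tested member of the 31 gene lists (rows, ordered by median), with called members in blue, others in grey and the list median as a black bar. The glucocorticoid-induced, T cell, natural killer and clock lists have the lowest medians, from -0.68 to -0.33, and the adipocyte list the highest, at 0.50, with no member called.

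Metabolic and matrix genes gave smaller groups of calls. In the cholesterol synthesis list 3 of 18 rose (16.7%, against 0.909% of all genes) and none fell, with a median of 0.29. Sqle, which carries out the first oxygenation of the pathway, rose by 1.01 (SE 0.20, adjusted p = 0.00412), Insig1, which retains the SREBP complex in the endoplasmic reticulum, by 0.94 (SE 0.26, adjusted p = 0.0498) and Hsd17b7 by 0.92 (SE 0.22, adjusted p = 0.018). Sqle passed whichever sample was left out, Insig1 was lost with each removal (up to 0.236), and Hsd17b7 was lost without GIT2KO replicate 1 or 3 or WT replicate 3 (up to 0.151). In the collagen and matrix list 3 of 26 rose (11.5%, against 0.909% of all genes) and 1 fell (3.85%, against 1.89%). Col3a1 rose by 1.17 (SE 0.28, adjusted p = 0.0226), Col1a1 by 1.08 (SE 0.25, adjusted p = 0.0154) and Col5a1 by 0.70 (SE 0.18, adjusted p = 0.0329), while Dcn, a proteoglycan of the matrix, fell by 0.57 (SE 0.15, adjusted p = 0.0364). With 1 sample left out, 0-2 of the matrix rises were called (none without WT replicate 1) and the fall of Dcn was not. The list moved both ways by measure. Its summed linear signal was lower in every GIT2KO node, at 25796-28026 against 29314-32228 in WT. Its mean log2 signal was higher in every GIT2KO node, at 8.52-8.63 against 8.22-8.48. Serpinh1 (HSP47), the chaperone of collagen, was at 8.13, 8.21 and 8.24 against 6.28, 6.17 and 6.66 (log2 difference 1.82, SE 0.22, adjusted p = 6.93e-06).

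The signal of adipocyte genes was uneven among the knockout nodes and overlapped that of the WT nodes. The mean over 18 adipocyte genes was 8.44, 8.15 and 7.25 in GIT2KO and 7.47, 7.17 and 6.88 in WT, and their summed linear signal 13501-22704 and 9806-12123. None of the 18 was called, Dgat2 coming closest with a difference of 2.19 (adjusted p = 0.0931). The inguinal fit alone called 4 higher, where 3.62% of all genes were higher. Ucp1 and Elovl3 of the brown fat list were not well above background in any node. The summed linear signal of its 7 tested genes was 856, 891 and 303 in GIT2KO and 378, 348 and 347 in WT. None was called, and 3 of the 7 differences were negative. Cidea differed by 2.11 (adjusted p = 0.232) and Cox8b by 1.81 (adjusted p = 0.203). The inguinal fit alone called 1 of the 7 higher, Cidea (adjusted p = 0.0395). The part of fat in the changes of lipid genes was not tested.

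Signalling genes around AMPK, PI3K and mTOR split. Pik3cg, the gamma catalytic subunit of PI3 kinase, rose by 1.46 (SE 0.21, adjusted p = 8.7e-05), as 1 of 23 tested (4.35%, against 0.909% of all genes), and 3 fell (13%, against 1.89%). Pik3ip1, an inhibitor of PI3 kinase, fell by 1.34 (SE 0.23, adjusted p = 0.000784), Prkag2, a regulatory subunit of AMPK, by 0.87 (SE 0.19, adjusted p = 0.00871), and Tsc2, which restrains mTOR, by 0.70 (SE 0.13, adjusted p = 0.00276). A second Tsc2 probe differed by -0.18 (adjusted p = 0.644). These 4 calls held whichever sample was left out. Around GIT2 itself, none of the other 10 tested partners was called, Git1 differing by -0.32 (adjusted p = 0.57) and Arhgef6 (alpha-PIX) by -0.24 (adjusted p = 0.22).

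Other lists held 1 or 2 calls each. H2-T10 and H2-Bl, nonclassical class I genes of the major histocompatibility complex, were the 2 of 18 tested that rose (11.1%, against 0.909% of all genes), and none fell. H2-T10 rose by 1.74 (SE 0.17, adjusted p = 3.59e-07) and H2-Bl by at least 1.29-fold (adjusted p = 2.17e-05), while H2-K1 differed by 0.34 (adjusted p = 0.46). Genes of this family are close copies, and their probes may read more than 1. Ndufb10, a subunit of complex I, rose by 1.01 (SE 0.22, adjusted p = 0.0113) as the 1 call among 69 genes of oxidative phosphorylation (1.45%, near the 0.909% of all genes), and Timmdc1, which assembles complex I, by 2.20 (SE 0.35, adjusted p = 0.000358). Glo1, which clears methylglyoxal, rose by 0.94 (SE 0.12, adjusted p = 1.75e-05), and Hyou1, an endoplasmic reticulum chaperone undetected in WT, by at least 2.32-fold (adjusted p = 0.0027). Sin3a, a corepressor scaffold, fell by 0.67 (adjusted p = 0.018) and AI467606 by 0.69 (adjusted p = 0.000155), while Rnase4 differed by 0.40 (adjusted p = 0.524). Ndufb10 was lost without GIT2KO replicate 2 or WT replicate 3 (up to 0.0814), and Sin3a without GIT2KO replicate 1 or 3 or WT replicate 1 or 3 (up to 0.106).

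Erythroid markers were lower in sum beside the fall of a globin, while the summed neutrophil markers overlapped between the genotypes. Hbb-bt, a beta globin, was at 5.05, 4.9 and 5.69 in GIT2KO and 8.95, 7.93 and 7.49 in WT (log2 difference -2.91, SE 0.66, adjusted p = 0.0134). The summed signal of 9 erythroid genes was 1356-2422 in GIT2KO and 4297-8875 in WT, with no member called and Klf1 and Hemgn undetected in all nodes. That list holds a globin too, Hba-a1, which differed by -1.80 (adjusted p = 0.198), and a linear sum weighs bright genes most. Its median difference was -0.28, with 3 of the 9 positive. The mean over the list was 5.94-6.17 in GIT2KO and 6.46-6.67 in WT. Camp, an antimicrobial peptide of neutrophil granules, was at 4.74, 4.96 and 5.31, undetected, against 6.75, 8.10 and 7.72, at least 4.41-fold lower (adjusted p = 0.0116). Summed over 17 neutrophil genes the signal was 2034-2259 in GIT2KO and 1793-3196 in WT, and Ngp was undetected in all nodes. In that list Camp was the 1 fall (5.88%, against 1.89% of all genes) and Il1b the 1 rise (5.88%, against 0.909%). Whether blood in the nodes bears on the falls of Hbb-bt and Camp was not tested. Hbb-bt was lost without GIT2KO replicate 1 or 2 or WT replicate 1 (up to 0.109), and Camp without GIT2KO replicate 1 or WT replicate 2 or 3 (up to 0.0826).

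The difference between the genotypes was then compared across tissues of the same animals. Of the 384 calls in ILN, 134 were also called with the same sign in MLN (34.9% of the ILN calls and 40.5% of the 331 MLN calls, which are 2.2% of transcripts) and none with the opposite sign. In spleen 201 were shared with the same sign (52.3% of ILN calls, 5.3% of the 3790 spleen calls, 25.2% of transcripts) and 10 with the opposite sign. In thymus 171 were shared (44.5% of ILN calls, 6.54% of the 2615 thymus calls, 17.4% of transcripts) and 4 were opposite. In all 4 tissues 25 transcripts were higher and 63 lower, among them Trim30a, Thumpd1, Git2, Per1, Dbp, Tef and Ddit4. ILN alone called 42 higher and 83 lower transcripts, which does not by itself show that these differ from the other tissues.

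The test of that difference named few transcripts against MLN. The GIT2KO effect differed between ILN and MLN for 15 transcripts (0.0996%, limma, Benjamini-Hochberg), 841 having an unadjusted p under 0.05. With each animal, which gave both nodes, as a block in a fit of these 4 groups, chosen after seeing the data, 3 transcripts passed and 1501 had an unadjusted p under 0.05. Of those 3, 2 are among the 15. With the replicate number as a block within each tissue 0 passed, 1114 having an unadjusted p under 0.05, and without WT replicate 2 the count was 7. Of the 15, 7 were called in ILN and not in MLN and 8 the other way round. Tph1, the enzyme that sets the rate of serotonin synthesis outside the nervous system, was at 4.66, 4.64 and 4.76 in GIT2KO ILN, undetected, and at 6.24, 6.41 and 5.98 in WT ILN, at least 1.77-fold lower (adjusted p = 2.12e-10). Its difference in MLN was 0.02, and the effects differed by -1.55 (SE 0.14, adjusted p = 1.14e-06, and 0.0271 with the animal as a block). Tpsab1, a tryptase of mast cells, was at 11.37, 9.65 and 9.65 against 8.54, 7.99 and 7.77 in ILN (log2 difference 2.12, SE 0.34, adjusted p = 0.000415) and differed by -0.37 in MLN, where its mean signal was 5.0 and 5.37. The effects differed by 2.50 (SE 0.48, adjusted p = 0.0389), which did not pass with the animal as a block (adjusted p = 0.203). The other 6 tested mast cell genes all had negative differences in ILN and none was called, among them its close copy Tpsb2 at -0.29. Gm525 rose by 2.07 (SE 0.23) in ILN, with a difference of effects of 1.62 (adjusted p = 0.0494), and Sgsm1 fell, by at least 1.56-fold, with a difference of effects of -1.11 (adjusted p = 0.0128). With the animal as a block neither passed (adjusted p = 0.113 for each). For Nsd1, Zbtb7a, Lyst, Ceacam1, 1 Rufy3 probe and 1 of the 3 Mmp3 probes the fall lay in MLN. Their ILN differences of 0.03, 0.13, 0.31, 0.41, 0.19 and 0.93 did not pass. The Rufy3 and Mmp3 probes are not the brightest of their genes.

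**Figure D4:**
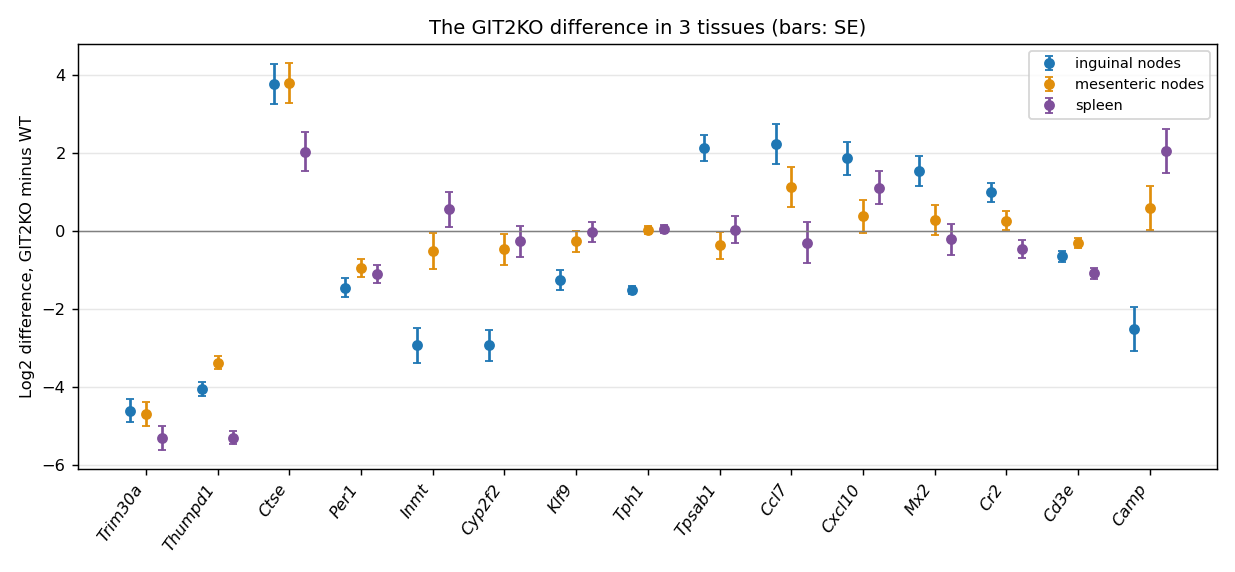
Log2 difference between GIT2KO and WT (y axis, bars are SE from the fit) of 15 genes (x axis) in inguinal nodes, mesenteric nodes and spleen, 3 and 3 samples in each. Trim30a, Thumpd1, Ctse and Per1 differ in 1 direction in all 3 tissues, while Tph1 lies at -1.52 in inguinal nodes and at 0.02 and 0.04 in the others.

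Against spleen the effect differed for 740 transcripts (4.92%), and for 632 of them the call lay in spleen and not in ILN. This count fell to between 267 and 485 when any 1 inguinal sample was left out, lowest without GIT2KO replicate 1, and to 415 in a fit of the compared groups alone. Granule genes of immature neutrophils led these. Ngp, a granule protein of neutrophil precursors, was undetected in all 6 inguinal nodes and rose by 4.02 in spleen, and Prtn3, Elane, Mpo, Ctsg and Ms4a3 rose there by 2.83-3.33 on their brightest probes, with ILN differences of -0.88 to -0.09 that did not pass. The transcripts called in ILN and not in spleen numbered 57. Inmt, a methyltransferase of tryptamine, was at 8.63, 8.91 and 9.52 in GIT2KO ILN and 12.06, 11.96 and 11.88 in WT (log2 difference -2.94, SE 0.46, adjusted p = 0.000259). Its effects in ILN and spleen differed by -3.49 (SE 0.65, adjusted p = 0.00479), at spleen signals of only 5.29 and 4.74. Against MLN the difference of effects was -2.42 and did not pass (adjusted p = 0.258). Cyp2f2, a cytochrome P450, was at 6.99, 6.71 and 7.13 against 10.01, 9.96 and 9.67 (log2 difference -2.94, SE 0.39, adjusted p = 4.03e-05), with a difference from spleen of -2.66 (adjusted p = 0.0109) and from MLN of -2.46 (adjusted p = 0.102). Knockout and WT nodes of both genes were separated by over 2 log2 units. Camp fell in ILN and rose in spleen, by 2.04, a difference of effects of -4.56 (SE 0.79, adjusted p = 0.00254), and Cr2, with 0.98 in ILN and -0.46 in spleen, differed by 1.45 (adjusted p = 0.0181).

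For Per1, Nr1d1 and Dbp no difference of effects between tissues passed, with effects in ILN below those in MLN by 0.47-0.69 and below those in spleen by 0.33-0.86. Per1 fell by 0.95 in MLN and 1.11 in spleen, Dbp by 1.01 and 1.37, and Nr1d1 by 1.28 and 0.89. Among the clock genes, the effects in ILN and spleen differed for Nr1d2, by 1.43 (adjusted p = 0.0146), and for Bhlhe40, by 1.22 (adjusted p = 0.0255), both of which fell in spleen, by 2.16 and 0.82. Klf9 had differences of -0.28 in MLN and -0.04 in spleen that did not pass, and its difference of effects missed the threshold in both (adjusted p = 0.71 and 0.0573). The T cell genes Cd3g, Cd3d, Cd3e and Zap70 also fell in spleen, by 0.92-1.12, and had MLN differences of -0.31 to -0.02 that did not pass. The effects in ILN and MLN were not shown to differ for these 4 genes.

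Called genes lay near each other in the genome more often than other genes. For these counts a gene is called if any of its tested probes passed, also where its brightest probe did not. Of 329 called genes placed on GRCm38.p6, 156 had another called gene among the 5 tested genes on either side, 47.4%, against 23.5% of genes not called. For the 77 placed genes called in all 4 tissues the share with another such gene nearby was 27.3%, against 6.36% of the rest. By chromosome, 4.68% of tested transcripts on chromosome 9, 4.46% on chromosome 7 and 4.14% on chromosome 17 were called, against 2.55% overall and 1.05% on chromosome 14. The densest stretch held 9 called genes among 19 tested neighbours on chromosome 9, namely Dpagt1, Hyou1, Bcl9l, Cxcr5, Phldb1, Tmem25, Cd3g, Cd3d and Cd3e, 5 of which were called in all 4 tissues. Cxcr5 enters through a probe that is not its brightest. The 3 Cd3 genes, which make up 3 of the 4 T cell calls, thus lie in that stretch, while Zap70 lies on chromosome 1. On chromosome 6 a stretch of 12 tested genes held 5 called ones, Clec1b, Klre1, Klrd1, Klri2 and Klra7, which include the 3 natural killer calls. On chromosome 7 Hbb-bt, Trim30b, Trim30a and Trim30d were called among 7 neighbours, and on chromosome 17 Clcn7, Gnptg, Prss29 and Tpsab1 among 6. Members of a gene family often lie side by side and share sequence, so that neighbours are not independent, and the part of position in the list counts was not tested. The genes of these stretches were named after their values were seen.

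**Figure D5:**
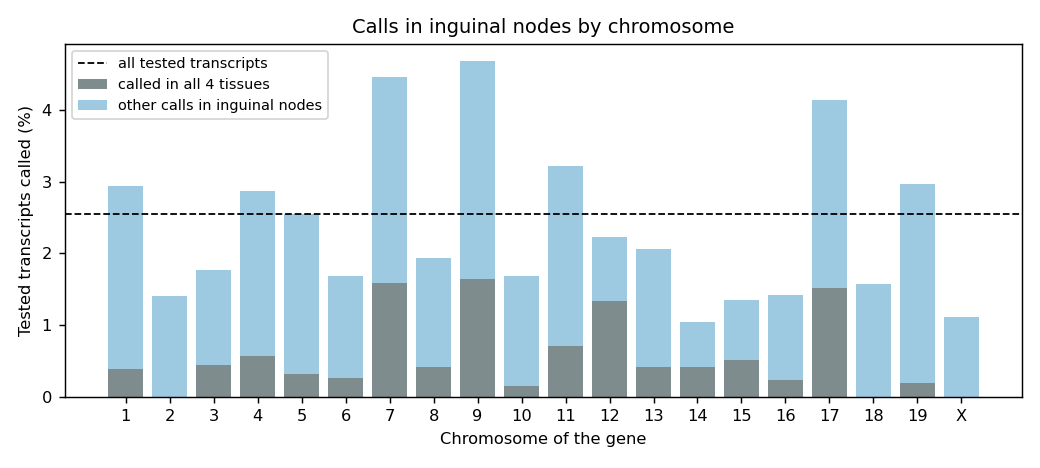
Share of tested transcripts called in inguinal nodes (y axis, percent) by chromosome of the gene (x axis), divided into those called with the same sign in all 4 tissues (grey) and other calls (blue), with a dashed line at 2.55% for all tested transcripts. Chromosomes 9, 7 and 17 stand highest, at 4.68%, 4.46% and 4.14%.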

How the data were processed

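Samples were grouped by their labels. Signal intensities and detection p-values were deposited by the authors from GenomeStudio 2011.1, not normalized, for 31 arrays and 25697 probes; the authors then made z scores of log10 signals, which are deposited as score values and were used here as an alternative only. No sample column was left unused. From the intensities, background was corrected with neqc (limma 3.58.1, R 4.3.3), which infers the negative controls from detection; after an offset of 16 the arrays were normalized by quantiles and put on the log2 scale. Repeat arrays were averaged. Probes with a detection p under 0.05 in at least 3 samples were tested (15053, 911 without a symbol, 10341 genes). The array's annotation names 1 gene for 23978 probes.

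A single limma model (trend) over 27 samples in 9 groups gave every contrast, the differences of effects between tissues included, and the Benjamini-Hochberg method adjusted each contrast across the whole table of tested probes (threshold 0.05). Where a gene has several tested probes, the brightest stands for it unless another probe is named. In the counts by position and of probes that disagree, any called probe makes a gene called. When a group detected a probe in no sample its fold is a lower bound. Named genes are Git2, up to 15 per direction with the largest called differences and no overlap, genes the study names as shared by tissues, the leading members of each list, or their 3 lowest p-values where none passed, and up to 10 per difference between tissues. Other list members named with values that did not pass were chosen for their role. The members, lists and rules were chosen with earlier results of these data known, so counts within lists are descriptions. The fit was tested on simulated data. Same-numbered GIT2KO and WT inguinal samples correlated at 0.207, -0.08 and 0.053 after removal of group means, so numbers were not used as pairs. The number of arrays limits the precision. The cell counts and protein measurements of the study were not used here.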

Additional observations from a re-analysis of the deposited data

Results flagged for a closer look

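The GIT2KO effect in inguinal nodes differed from that in mesenteric nodes for 15 transcripts by the test of the difference itself. With the animal as a block 3 passed, of which 2 are among the 15. Among the named genes, the effect in ILN exceeded that in MLN by a log2 difference of 2.57 for Mmp3, 2.5 for Tpsab1, 1.98 for Nsd1, 1.86 for Zbtb7a, 1.62 for Gm525, 1.6 for Rufy3, 1.56 for Ceacam1 and 1.55 for Lyst. The values of Mmp3 and Rufy3 are each from 1 probe that is not the brightest of its gene. It lay below that in MLN for Tph1, by -1.55, and for Sgsm1, by -1.11.

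Against spleen the effect differed for 740 transcripts. The effect in ILN minus that in spleen was -4.69 for Ltf, -4.56 for Camp, -4.34 for Ngp, -4.21 for Prtn3, -3.87 for Mpo, -3.8 for Ctsg, -3.75 for Elane, -3.49 for Inmt and -3.18 for Ms4a3. For Lyz1 it was 3.46 on 1 of 3 probes, and 0.01 on the brightest, and the probes of Lyz1 and Lyz2 may each read both genes.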

How the results depend on the processing

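The 127 higher and 257 lower calls became 619 and 691 with neqc and fit of the inguinal arrays alone, 612 and 690 with a fit of the compared groups alone, and 547 and 665 with the replicate block in that fit. The methods' t-test gave 1495 and 1465 at an unadjusted p of at most 0.05, and 8 and 22 after Benjamini-Hochberg. With 1 inguinal sample left out the counts were 65-82 and 132-168. The 15 transcripts that differ from mesenteric nodes became 7 with the deposited z scores, 0 with the replicate block (1114 at an unadjusted p under 0.05), 3 with the animal as a fixed block, added after seeing the data, and 7-16 with 1 sample left out. Of the 15 themselves, 4 passed with the z scores and 2 with the animal as a fixed block. The 740 that differ from spleen became 415 with the compared groups alone, 458 with the replicate block and 267-485 with 1 sample left out. Other alternatives (no background correction, filters, animal as a random block, each array of the repeated sample, robust estimation, and 2 filters on arrays added after seeing the data) kept each count within 1.5 times. Of 68 named genes past the threshold, 40 passed under every alternative run for single genes, which leaves out the methods' t-test, and none of the 68 changed direction under these. A transcript that did not pass is not shown to be unchanged with 3 and 3 samples.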
